A study of Mus musculus with 24 samples.

Results

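Il17b, a cytokine of the IL-17 family, and the 5 IL-17 receptor chains Il17ra, Il17rb, Il17rc, Il17rd and Il17re were followed in oligodendrocytes (OLs) and in the whole mouse spinal cord before and after contusive spinal cord injury (SCI). These 6 genes were chosen by name, as a ligand and every receptor chain of the family, among 21965 genes in the count table. The choice was made with earlier results of these data known, and the paper reports this ligand as raised in OLs. All 6 passed the filter on low counts, a sum of at least 10 counts over the libraries, as did 17167 genes in all. All animals carried Plp-CreERT2 and the conditional HA tag on the ribosomal protein gene Rpl22 (OL-Ribotag, genotype plp-cre;rpl22HA), so that tamoxifen placed HA on the ribosomes of OLs and a pulldown with HA antibody gave the OL translatome. Total spinal cord RNA was the part of the same lysates taken before the pulldown. There were 8 groups, the OL translatome and total RNA of naive mice and of mice at 2, 10 and 42 days post injury (dpi), each of 3 libraries made from pools of 2 animals described as female. Injury was a T9 contusion of 50 kdyn with the IH impactor in mice labelled as 10 to 12 weeks old. Naive tissue was collected at the age of the dpi 42 group, so mice at dpi 2 and 10 were younger than their controls, and age and time after injury cannot be told apart there.

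Several properties of the libraries bear on these genes. Total counts ranged from 25840127 to 32987841 per library, and levels are given as CPM, counts scaled to the library total and corrected by TMM factors. A count of 3, taken here as the floor of detection, corresponds to 0.0909 to 0.116 CPM before that correction. Mature OL markers (9 genes, among them Mbp, Mag and Mog) summed to between 71760 and 97090 CPM in OL libraries and to between 15050 and 18950 CPM in total RNA. The labels of 2 dpi 42 libraries conflict on which kind of RNA they hold. They were grouped by their description, and the first principal component (53.8% of variance) placed all 12 OL libraries between 77.6 and 148 and all 12 total RNA libraries between -124 and -82.5. Both libraries of dpi 2 pool 2 carried Y-linked transcripts (a sum of 4 genes of 97.8 and 77.9 CPM), although the animals were described as female. The pulldown also carried RNA of other cells to a varying degree. The sum of 6 astrocyte markers in OL libraries was 1455, 1297 and 8448 CPM in naive pools, 2551, 945 and 7676 at dpi 2, 2040, 6259 and 2522 at dpi 10 and 12190, 10200 and 1915 at dpi 42. Plp-CreERT2 is also active in Schwann cells, and the sum of 8 Schwann cell markers in OL libraries ranged from 753 to 1301 CPM in naive mice, 1000 to 1608 at dpi 2, 1899 to 2781 at dpi 10 and 2005 to 2351 at dpi 42.

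IL-17 receptors work as pairs of single-pass membrane chains that recruit the adaptor Act1 (gene Traf3ip2) through a shared cytoplasmic SEFIR domain, which leads through TRAF proteins to NF-kB, MAP kinases and the stabilisation of inflammatory mRNAs. IL-17RA is the common chain. It pairs with IL-17RC for IL-17A and IL-17F, with IL-17RB for IL-25 and with IL-17RE for IL-17C, whereas IL-17B binds IL-17RB. IL-17RD, also known as Sef, is an inhibitor of fibroblast growth factor signalling that can also associate with IL-17RA. In demyelinating disease the pathway is best known through IL-17A made by T cells.

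The promoter of Il17rb is shown because Il17rb is the receptor chain that was called as higher in OLs than in total RNA in each of the 4 comparisons. The sequence covers the 250 bases before the RefSeq start of Il17rb (GRCm38.p6, chr14:30008897-30009146, minus strand), with the matches to the searched motifs in capitals.
Il17rb: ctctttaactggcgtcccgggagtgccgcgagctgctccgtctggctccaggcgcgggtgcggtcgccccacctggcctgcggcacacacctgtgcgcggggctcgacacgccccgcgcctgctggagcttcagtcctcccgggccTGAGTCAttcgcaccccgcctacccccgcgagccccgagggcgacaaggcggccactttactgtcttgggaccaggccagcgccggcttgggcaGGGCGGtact
This window is rich in G and C (72.0%). Of the 5 motifs searched on both strands, the AP-1 motif TGANTCA occurred 1 time, beginning 104 bases before the start, and the GC box GGGCGG 1 time, beginning 10 bases before it. Among 32851 promoter windows of the same length in the RefSeq table, 6.75% hold the AP-1 letters and 32.7% the GC box. The CRE TGACGTCA, an NF-kB motif (GGG and CC with 5 bases of any kind between them) and the Sox motif ACAATG, held by 1.55%, 45.8% and 10.7% of windows, were not found in this window. The table holds no window for Il17b or Il17ra.

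In the GENCODE M21 annotation of GRCm38, Il17b (ENSMUSG00000024578) lies on chr18:61684887-61692538 on the plus strand with 973 bp of exon. Il17rb (ENSMUSG00000015966) lies on chr14:29996135-30008896 on the minus strand with 3707 bp of exon, and Il17rd (ENSMUSG00000040717) on the same chromosome, chr14:27038941-27107286, plus strand, 10985 bp. The other 3 receptor genes are on chromosome 6. There Il17re (ENSMUSG00000043088, chr6:113458484-113470758, 5868 bp) ends just before Il17rc (ENSMUSG00000030281, chr6:113471427-113483140, 2671 bp) on the same strand, and Il17ra (ENSMUSG00000002897, chr6:120463247-120487559, 8662 bp) is farther along. Exons of Il17rb overlap those of Actr8 on the opposite strand over 141 bp (3.8% of the exon length), and those of Il17b overlap an antisense transcript over 141 bp (14.5%). Since the strand setting of the counting is not given in the sources used here, reads in those stretches cannot be assigned to one strand. Actr8 was at 66.7 ± 11.1 CPM in naive OLs and 47.9 ± 1.32 CPM in naive total RNA (SD, n = 3).

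The ligand Il17b was low in naive OLs, was higher in OLs at dpi 2 and dpi 42, and was found at much lower levels in total RNA. In the OL translatome it was at 0.924, 0.931 and 0.306 CPM in the naive pools, 10.7, 16.5 and 2.6 CPM at dpi 2, 2.25, 2.40 and 3.58 CPM at dpi 10 and 8.25, 4.44 and 6.73 CPM at dpi 42. Every injured OL library was above every naive one, with the widest spread at dpi 2, where pool 3 was lowest. In total RNA Il17b was at 0.164, 0.0322 and 0.190 CPM in naive cord, 1.57, 0.957 and 0 at dpi 2, 0.712, 0.173 and 0 at dpi 10 and 0.372, 0.240 and 0.455 at dpi 42. Several of these values rest on fewer than 10 counts (5, 1 and 6 counts in the naive libraries), and they overlap between naive and injured cord at dpi 2 and 10.

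Il17rb, the chain that binds IL-17B, was not called as changed in OLs at any time. Its OL libraries gave 15.3, 20.4 and 8.45 CPM in naive mice, 11.9, 10.5 and 10.0 CPM at dpi 2, 16.2, 10.9 and 12.9 CPM at dpi 10 and 10.6, 9.0 and 15.5 CPM at dpi 42. The 12 total RNA libraries lay between 0.363 and 3.44 CPM, below each of the 12 OL libraries. The common chain Il17ra was found in both kinds of RNA in every library. In OLs it was at 21.5, 24.9 and 46.2 CPM in naive pools, 41.2, 45.8 and 57.0 at dpi 2, 31.5, 34.6 and 33.0 at dpi 10 and 51.5, 40.2 and 27.7 at dpi 42, with naive pool 3 inside the range of the injured libraries. In total RNA it was at 17.3, 14.7 and 18.8 CPM in naive cord, 43.3, 60.5 and 45.4 at dpi 2, 35.2, 34.3 and 38.9 at dpi 10 and 34.9, 24.6 and 30.5 at dpi 42. No naive total RNA library reached the range of any injured group.

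The remaining chains were at lower levels in OLs. Il17rc, the partner of IL-17RA for IL-17A and IL-17F, was at 0.336, 0.677 and 3.18 CPM in naive OLs, 2.61, 0.810 and 8.34 at dpi 2, 0.971, 2.13 and 0.914 at dpi 10 and 8.25, 5.79 and 1.57 at dpi 42. Within each time the OL library with the highest Il17rc was the one with the highest astrocyte marker sum (naive pool 3, dpi 2 pool 3, dpi 10 pool 2 and dpi 42 library 1). These libraries also had the highest oligodendrocyte precursor (OPC) marker sum of their time, 136, 95.8, 74.9 and 69.8 CPM. The cell types cannot be told apart here, and their part in the Il17rc values was not tested. In total RNA Il17rc lay between 2.66 and 3.61 CPM in naive cord, 7.77 and 13.5 at dpi 2, 7.12 and 8.58 at dpi 10 and 4.98 and 6.96 at dpi 42. Il17rd was at 0.126, 0.846 and 2.41 CPM in naive OLs and between 0 and 1.29 CPM in injured OL libraries, against 2.83 to 4.73 CPM over all 12 total RNA libraries. Il17re had 0 counts in 11 of the 12 OL libraries and 6 counts in the other one (dpi 10 pool 2), and its total RNA libraries held 0 to 33 counts.

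**Figure D1:**
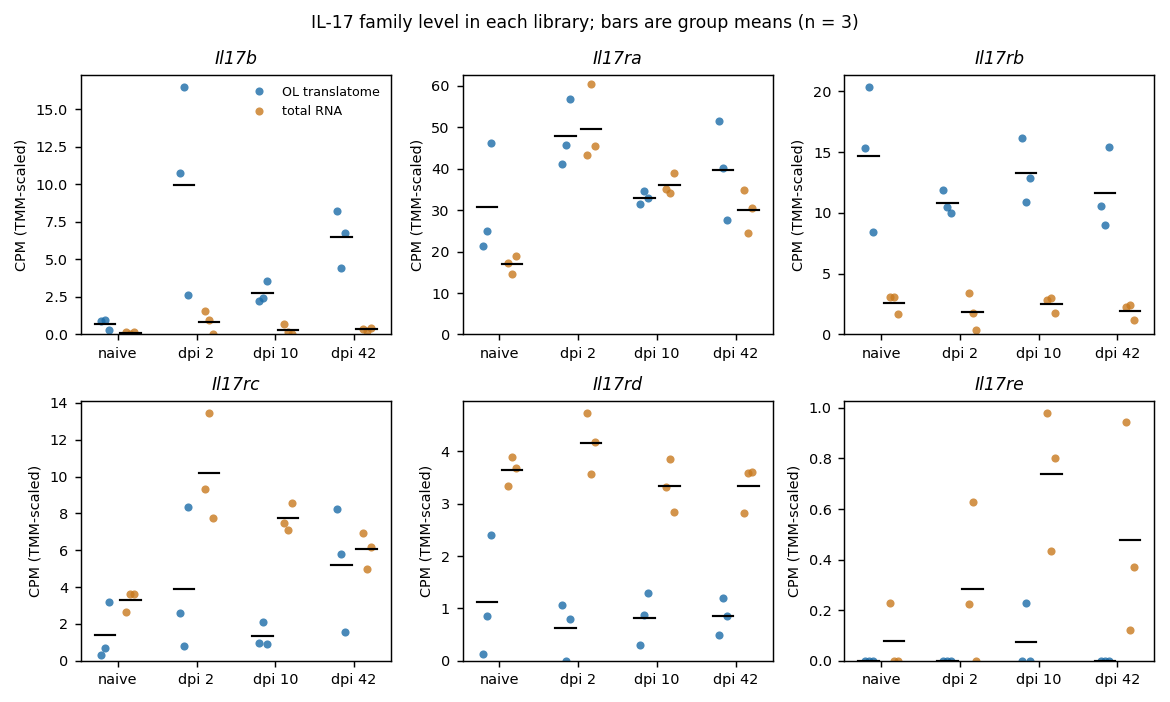
Level of each of the 6 genes in every library, in TMM-scaled CPM on a linear axis, for OL translatome (blue) and total RNA (orange) in naive mice and at dpi 2, 10 and 42, with bars at the mean of 3 libraries. Il17b and Il17rb sit higher in OL libraries, Il17rd sits lower, and Il17b rises from a mean of 0.720 CPM in naive OLs to 9.94 CPM at dpi 2.

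Levels can be compared between genes only per length of exon, on a scale of CPM per kilobase. On that scale Il17rb (3.97 ± 1.62, SD, n = 3) and Il17ra (3.56 ± 1.55) led in naive OLs and did not differ beyond their spread, followed by Il17b (0.740 ± 0.369), Il17rc (0.523 ± 0.580) and Il17rd (0.103 ± 0.106), of which Il17b and Il17rc also lay within their spread. At dpi 2 the order in OLs was Il17b (10.2 ± 7.17), Il17ra (5.54 ± 0.936), Il17rb (2.91 ± 0.261), Il17rc (1.47 ± 1.47) and Il17rd (0.0565 ± 0.0503), where the first place of Il17b lay within its own spread. At dpi 10 Il17ra (3.81 ± 0.178) and Il17rb (3.60 ± 0.723) led, within their spread, ahead of Il17b (2.82 ± 0.747), which overlapped Il17rb in spread. At dpi 42 Il17b (6.65 ± 1.97) and Il17ra (4.59 ± 1.38) led, ahead of Il17rb (3.15 ± 0.909). In naive total RNA the order was Il17ra (1.96 ± 0.241), Il17rc (1.23 ± 0.207), Il17rb (0.701 ± 0.214), Il17rd (0.331 ± 0.0255) and Il17b (0.132 ± 0.0870). The chain beside Il17ra at the top was thus Il17rb in naive OLs and Il17rc in naive cord, an order that was not tested.

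OL enrichment compares the OL translatome with total RNA at the same time, on the log2 scale. A gene was called enriched or depleted where the difference passed 0.5 in either direction with q, the Benjamini-Hochberg adjusted p of edgeR's quasi-likelihood test over all genes, under 0.05. In bulk RNA fewer cells of a type and less RNA per cell cannot be told apart. Il17rb was enriched in OLs in all 4 comparisons, by 2.50 ± 0.51 (SE) in naive mice (q = 0.000244), 2.52 ± 0.513 at dpi 2 (q = 0.000285), 2.41 ± 0.507 at dpi 10 (q = 0.000398) and 2.58 ± 0.513 at dpi 42 (q = 0.000218). These are 5.66-, 5.75-, 5.30- and 5.97-fold differences, with 3 OL libraries above 3 total RNA libraries each time. The Il17rb calls were kept under every alternative run, with values between 1.83 and 3.32.

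Il17b was enriched in OLs at the 3 times after injury. Its difference was 3.55 ± 1.04 at dpi 2 (11.7-fold, q = 0.00643), 3.20 ± 1.06 at dpi 10 (9.22-fold, q = 0.0143) and 4.17 ± 1.08 at dpi 42 (17.98-fold, q = 0.00261). In naive mice it was 2.44 ± 1.14 and was not called (q = 0.0746), although all 3 OL libraries were above the 3 total RNA libraries. That naive difference passed the threshold in DESeq2 (2.41, q = 0.0368), with the 2 groups fitted alone (q = 0.0339) and without naive OL pool 3 (2.96, q = 0.038). The dpi 42 call was kept under every alternative run. The dpi 2 call for Il17b was lost when both libraries of the pool with Y-linked transcripts were left out (3.08, q = 0.0606), and the dpi 10 call was lost without total RNA library 2 (2.94, q = 0.058) or 3 (2.62, q = 0.0502).

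Il17ra was enriched in naive OLs only slightly, by 0.87 ± 0.242 (1.82-fold, q = 0.00431), and the values after injury were -0.05 at dpi 2, -0.13 at dpi 10 and 0.41 at dpi 42, none of them called. The naive Il17ra call depended on scaling, with a value of 0.38 (q = 0.234) when libraries were scaled by their totals alone, a setting that also moved the median of all genes from -0.27 to -0.78. Without naive OL pool 3, the naive pool with the highest astrocyte and OPC marker sums, the naive difference was 0.61 and still called.

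Il17rd was depleted from OLs at dpi 2, by -2.73 ± 0.865 (q = 0.0112, 6.63-fold lower in OLs), and at dpi 10, by -2.01 ± 0.84 (q = 0.0489, 4.03-fold lower). It was not called in naive mice (-1.68 ± 0.827, q = 0.0913) or at dpi 42 (-1.98 ± 0.838, q = 0.0521), although all 3 OL libraries were below all 3 total RNA libraries at each of these 4 times. The dpi 42 Il17rd difference was called in 6 of 15 alternatives, among them DESeq2 size factors (-2.05, q = 0.0446), and the naive one in 3 of 14. The dpi 10 Il17rd call stood at the threshold. It was lost in 7 of 14 alternatives, one of them the fit that paired OL and total RNA of the same pool (-2.18, q = 0.0806), and the dpi 2 call was lost when the 2 groups were fitted alone (q = 0.0725). Il17rc was depleted from OLs at dpi 10, by -2.53 ± 0.741 (5.76-fold lower, q = 0.0066), which was kept under all 14 alternatives, and was not called in naive mice (-1.23, q = 0.159), at dpi 2 (-1.38, q = 0.104) or at dpi 42 (-0.22, q = 0.831). Without naive OL pool 3 the naive value for Il17rc was -2.53 (q = 0.00829) and that for Il17rd -2.74 (q = 0.0176), both past the threshold. Without dpi 2 OL pool 3 the dpi 2 value for Il17rc was -2.61 (q = 0.00641). Il17re was at least 4.07-fold lower in OLs than in total RNA at dpi 42, where the OL libraries had 0 counts (q = 0.0325), and at least 2.34-fold lower at dpi 2 (q = 0.0525, not called). It was not called in naive mice (q = 0.161) or at dpi 10 (q = 0.178).

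**Figure D2:**
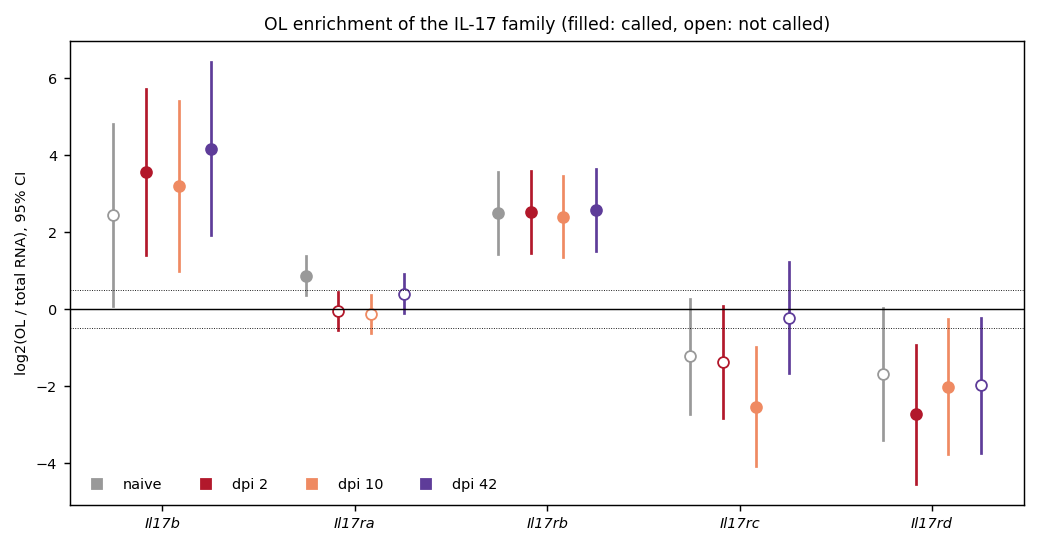
OL enrichment, log2 of OL translatome over total RNA with its 95% confidence interval from the quasi-likelihood fit, for 5 genes in naive mice and at dpi 2, 10 and 42. Filled points were called and open points were not, dotted lines mark the limit of 0.5, and Il17rb stays between 2.41 and 2.58 in all 4 groups; Il17re, with 0 counts in most OL libraries, has no point.

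Counted over the family, 2 of 6 genes were enriched in OLs at each time, Il17ra and Il17rb in naive mice and Il17b and Il17rb after injury, where the share of all genes enriched was 21.7% in naive mice, 20.5% at dpi 2, 21.2% at dpi 10 and 21.1% at dpi 42. One gene was depleted at dpi 2 (Il17rd), 2 at dpi 10 (Il17rc and Il17rd) and 1 at dpi 42 (Il17re), against 27.2%, 27.3% and 27.0% of all genes. In naive mice 28.6% of all genes were depleted and no call was made for a family member by edgeR, where no member was lower at an unadjusted p under 0.05 either, while DESeq2 called 4 members in all, among them Il17rd as lower. With 6 genes these counts are a description, set beside shares of about the same order among all genes.

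After injury Il17b was called as higher in OLs at dpi 2 and 42, and Il17ra in total RNA at dpi 2 and 10. For neither gene was a difference between the OL and total RNA changes called by the main fit. A change against naive was called where it passed 1 on the log2 scale with q under 0.05, and the comparisons at the 3 times share the same naive libraries. In OLs Il17b rose by 3.78 ± 1.06 at dpi 2 (13.8-fold, from a mean of 0.720 to 9.94 CPM, q = 0.00698) and by 3.17 ± 1.03 at dpi 42 (8.97-fold, to 6.47 CPM, q = 0.022). At dpi 10 the value was 1.93 ± 0.999 (3.80-fold, to 2.74 CPM, q = 0.204) and was not called, although its 3 libraries were above the naive ones. The dpi 2 rise of Il17b was kept in all 15 alternatives, between 3.16 and 4.17, also without both libraries of pool 2 (3.21, q = 0.0343). The dpi 42 rise was kept in 10 of 15 and was lost without naive OL pool 1 (3.33, q = 0.0543), 2 (3.33, q = 0.0543) or 3 (2.74, q = 0.0712), without dpi 42 OL library 1 (2.92, q = 0.057) and without both libraries with conflicting labels (2.95, q = 0.0622). Schwann cell markers in OL libraries were 1000 to 1608 CPM at dpi 2, 1899 to 2781 CPM at dpi 10 and 2005 to 2351 CPM at dpi 42, against 753 to 1301 CPM in naive OLs, and their part in the Il17b values was not tested. T cell markers (7 genes) in OL libraries summed to 0.714 to 3.14 CPM in naive mice and 0.794 to 4.17 at dpi 2. They were at 2.25 to 4.79 CPM at dpi 10 and 1.64 to 13.04 CPM at dpi 42. Neutrophil markers (7 genes) were at 0.127 to 1.09, 2.19 to 4.29, 1.86 to 4.49 and 0.336 to 3.22 CPM at these times. Macrophage markers (10 genes) were at 19.8 to 28.1, 79.6 to 101, 240 to 272 and 146 to 245 CPM. Fibroblast and pericyte markers (5 genes) were at 48.7 to 92.8, 205 to 273, 530 to 608 and 218 to 277 CPM. The part of these cells in the Il17b values was not tested. To limit RNA of other cells, the paper keeps an OL change that passes either of 2 filters. One requires the OL change to go beyond the total RNA change by more than 1, with q under 0.05. The other requires an OL enrichment over 1, with q under 0.05, both before and after injury. With the fit used here, Il17b passed neither filter at dpi 2 or dpi 42. It missed the second filter only on the naive enrichment (2.44, q = 0.0746). DESeq2 called that enrichment, as given above, and by its calls Il17b met the second filter at both times. The paper, by its own fit, reports Il17b as raised in OLs at dpi 2 after these filters. It places Il17b among genes that were not raised at dpi 42, or were at least 2-fold lower then. Here the dpi 42 rise was called, and dpi 42 against dpi 2 was -0.62 ± 0.93 (q = 0.75), not called.

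None of the 5 receptor chains was called as changed in OLs. Il17rb differed from naive OLs by -0.45 at dpi 2 (95% interval -1.45 to 0.55), -0.14 at dpi 10 (-1.14 to 0.85) and -0.34 at dpi 42 (-1.33 to 0.66). Il17ra was 0.64 ± 0.24 higher in OLs at dpi 2 (1.55-fold, q = 0.0409), under the fold limit, and 0.10 and 0.37 higher at dpi 10 and 42 (q = 0.875 and 0.262). Il17rc was 1.89 ± 0.73 higher at dpi 42 (3.70-fold, q = 0.0521) and 1.48 ± 0.726 higher at dpi 2 (2.79-fold, q = 0.118), neither called. Without naive OL pool 3 the Il17rc values were 3.28 at dpi 42 (q = 0.00279) and 2.88 at dpi 2 (q = 0.00585). The dpi 2 value was 0.23 (q = 0.88) without dpi 2 OL pool 3, and the dpi 42 value was 1.33 (q = 0.226) without dpi 42 OL library 1. The Il17rc change was called in 3 of 15 alternatives at dpi 2 and 5 of 15 at dpi 42. Il17rd differed by -0.86, -0.45 and -0.42 at dpi 2, 10 and 42, with intervals that reached from -2.61 to 1.31 over the 3 times, and these values turned to 0.30, 0.77 and 0.74 without naive OL pool 3. Il17re had 0 counts in the naive, dpi 2 and dpi 42 OL libraries and 6 counts in dpi 10 pool 2 alone, so no change could be given.

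**Figure D3:**
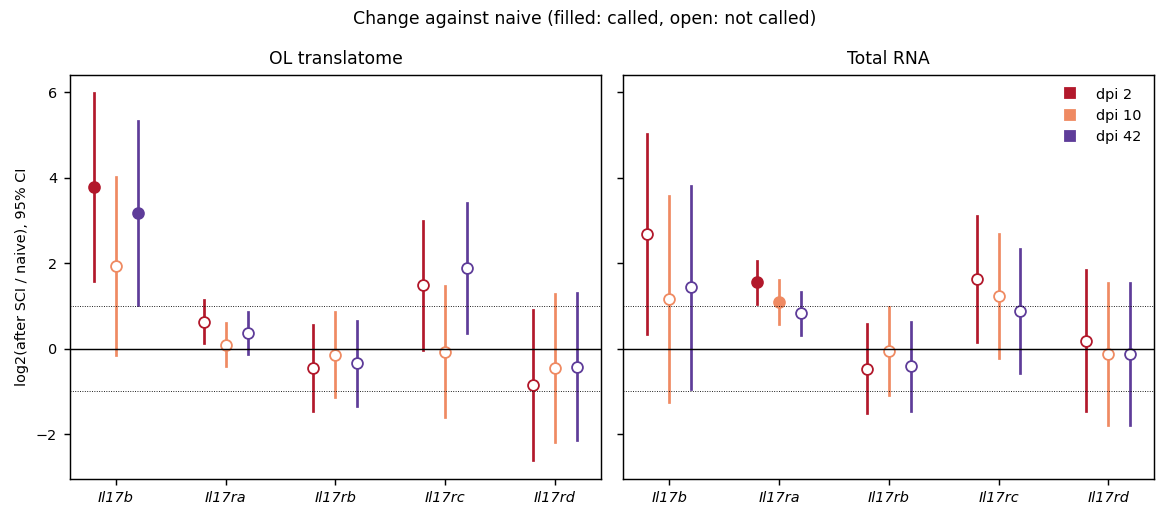
Log2 change against naive with its 95% confidence interval in the OL translatome (left) and total RNA (right) for 5 genes at dpi 2, 10 and 42. Filled points were called, open points were not, dotted lines mark the limit of 1, and the called points are Il17b in OLs at dpi 2 and 42 and Il17ra in total RNA at dpi 2 and 10.

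In OLs 1 of 6 genes was called as higher at dpi 2 and 1 at dpi 42, Il17b both times, where 10.2% of all genes were higher at dpi 2, 6.82% at dpi 10 and 8.54% at dpi 42. The share of all genes lower was 6.85%, 1.26% and 4.08%. No member was called at dpi 10 by edgeR or DESeq2, and 0 members had an unadjusted p under 0.05 there. In total RNA Il17ra rose by 1.55 ± 0.245 at dpi 2 (2.94-fold, from a mean of 16.9 to 49.7 CPM, q = 3.33e-05) and by 1.09 ± 0.242 at dpi 10 (2.13-fold, to 36.1 CPM, q = 0.00138), and both calls were kept under every alternative run. At dpi 42 it was 0.83 ± 0.241 higher (1.77-fold, q = 0.017), under the fold limit. Microglia and macrophage markers (10 genes) in total RNA summed to 228 to 271 CPM in naive cord, 1340 to 1586 at dpi 2, 3510 to 4789 at dpi 10 and 2024 to 3025 at dpi 42, and their part in the rise of Il17ra was not tested.

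The other values in total RNA were not called. Il17b was 2.67 ± 1.12 higher at dpi 2 (q = 0.0682), 1.16 at dpi 10 and 1.44 at dpi 42. The dpi 2 value of Il17b was called in DESeq2 (2.74, q = 0.0239) and without total RNA library 3, which held 0 counts (3.25, q = 0.0128), and was 1.86 (q = 0.256) without total RNA library 1. Il17rc was 1.63 ± 0.706 higher at dpi 2 (3.09-fold, q = 0.0773), 1.23 at dpi 10 (q = 0.199) and 0.88 at dpi 42 (q = 0.409). For Il17rc all 3 injured libraries were above all 3 naive ones at each time, and the change passed the threshold at dpi 2 in DESeq2 (1.67, q = 0.0407) and at dpi 2 and 10 when the groups were fitted alone (1.75, q = 0.000192, and 1.38, q = 4.27e-05). Astrocyte markers in total RNA summed to 4798 to 6073 CPM in naive cord, 6291 to 6374 at dpi 2, 7270 to 7879 at dpi 10 and 6533 to 7809 at dpi 42. Fibroblast and pericyte markers were at 66.03 to 90.77, 408.4 to 849.5, 2094 to 2350 and 496.5 to 805.7 CPM at these times. Endothelial markers were at 94.98 to 135.9, 188 to 325.5, 137.8 to 182.8 and 142.1 to 183.3 CPM. Macrophage markers, given above, also rose, and neuron markers were lower, from at least 7283 CPM to at most 3851 at dpi 2. The part of these cells in the Il17rc values was not tested. Il17rb differed by -0.47, -0.05 and -0.41 and Il17rd by 0.19, -0.12 and -0.12. Il17re was 1.8, 3.2 and 2.6 higher (q = 0.478, 0.236 and 0.369), with 0 to 7 counts in the naive libraries. At dpi 10 all 3 injured libraries were above the naive ones for Il17re. In total RNA 1 of 6 genes was thus called at dpi 2 and 1 at dpi 10, where 10.0% and 9.20% of all genes were higher, and 6.33% and 3.07% lower. At dpi 42, where 6.66% of all genes were higher and 0.798% lower, no member was called by edgeR or DESeq2, with 1 member, Il17ra, at an unadjusted p under 0.05.

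Whether OLs and whole cord responded differently was tested as the OL change minus the total RNA change. For Il17b this difference was 1.11 ± 1.55 at dpi 2, 0.76 ± 1.58 at dpi 10 and 1.73 ± 1.55 at dpi 42 (q = 0.75, 0.909 and 0.603), so the rise of Il17b in OLs was not shown to exceed that in total RNA. Its interval at dpi 2 ran from -2.11 to 4.33. For Il17rb it was 0.02 ± 0.668, -0.10 ± 0.688 and 0.08 ± 0.684. For Il17ra it was -0.92 ± 0.339 at dpi 2 (q = 0.0789), -0.995 ± 0.34 at dpi 10 (q = 0.0808) and -0.46 ± 0.339 at dpi 42 (q = 0.492), lower in OLs. It passed the threshold at dpi 2 (-1.16, q = 0.0192) and dpi 10 (-1.23, q = 0.0219) when scaling used a total RNA library as reference, and at dpi 10 in DESeq2 (-1.03, q = 0.0377). Single OL libraries also decided it, with calls for Il17ra at dpi 2 without naive pool 1 (-1.33, q = 0.0102), naive pool 2 (-1.26, q = 0.0212) or dpi 2 pool 3 (-1.27, q = 0.0182), and at dpi 10 without naive pool 1 (-1.32, q = 0.0194) or naive pool 2 (-1.25, q = 0.0401). With edgeR no member was called at any time, where 6.27%, 2.91% and 2.97% of all genes were called at dpi 2, 10 and 42. At an unadjusted p under 0.05 there was 1 member at dpi 2 and 1 at dpi 10, Il17ra both times, and 0 at dpi 42, and DESeq2 called 0, 1 and 0.

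Between times after injury no family member was called in OLs by edgeR, where 7.35% of all genes differed between dpi 10 and 2, 1.70% between dpi 42 and 10 and 6.41% between dpi 42 and 2. At an unadjusted p under 0.05 there were 2 (Il17ra and Il17rc), 1 (Il17rc) and 0 members, and DESeq2 called 0, 1 and 0. Il17b differed by -1.86 ± 0.961 at dpi 10 against dpi 2 (q = 0.181), by 1.24 ± 0.947 at dpi 42 against dpi 10 (q = 0.463) and by -0.62 ± 0.93 at dpi 42 against dpi 2 (q = 0.75). The dpi 10 libraries of Il17b all lay below the dpi 42 libraries and overlapped those of dpi 2. Il17ra was at -0.54 ± 0.239 at dpi 10 against dpi 2 (q = 0.115). Il17rc was at -1.55 ± 0.727 at dpi 10 against dpi 2 (q = 0.137) and at 1.96 ± 0.731 at dpi 42 against dpi 10 (q = 0.111).

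**Figure D4:**
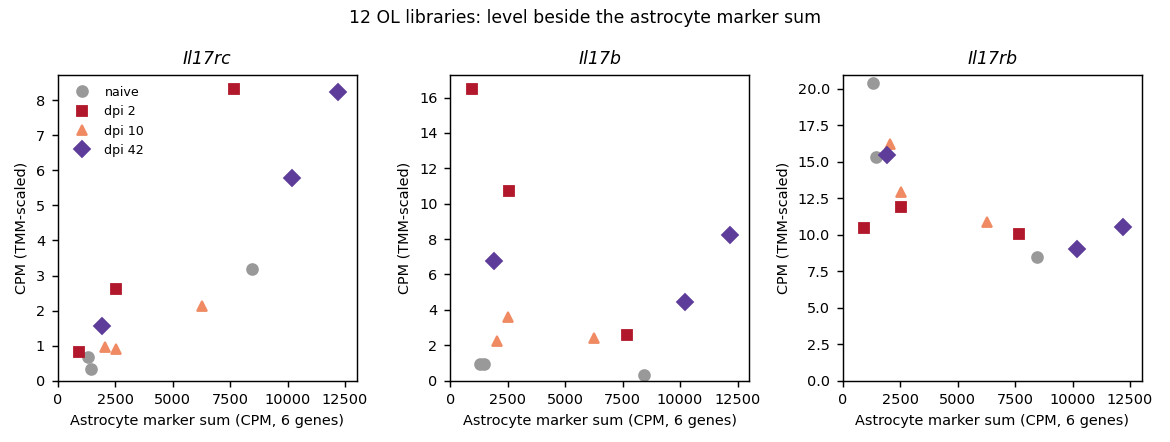
Level of Il17rc, Il17b and Il17rb in TMM-scaled CPM (vertical) in the 12 OL libraries against the sum of 6 astrocyte markers in CPM (horizontal), with 1 point per library and a symbol per time. The 4 OL libraries with the highest Il17rc, 3.18 to 8.34 CPM, are the 4 with the highest astrocyte sums, 7676 to 12190 CPM. The highest Il17b values, 16.5, 10.7 and 8.25 CPM, come from libraries with sums of 945, 2551 and 12190 CPM. OPC markers, not drawn, were also highest in the OL library with the highest Il17rc of each time. The part of these cells was not tested.

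Of the other ligands of the family, Il17d was the one with most counts. Il17a and Il17c had 0 counts in all 24 libraries, and Il17f had 5 counts in 1 dpi 10 total RNA library and 0 elsewhere. A count of 0 allows up to 3 counts per library, and these limits cover counting error only. Il17d, a cytokine of the same family whose receptor is debated, was lower in OLs than in total RNA at each time, from -3.59 ± 0.891 in naive mice (0.482 ± 0.166 against 5.84 ± 1.30 CPM, SD, n = 3, q = 0.00162) to -2.32 ± 0.83 at dpi 10 (q = 0.0228), and its changes in OLs were not called. Il25, the other ligand of IL-17RB, had 0 to 2 counts in naive OL libraries, 0, 18 and 45 at dpi 2, 0, 7 and 10 at dpi 10 and 0, 13 and 26 at dpi 42, and the OL change was not called at dpi 2 (q = 0.0804), dpi 10 (q = 0.375) or dpi 42 (q = 0.146). Il17a, Il17c and Il17f had too few counts to be tested, and Il25 was at the floor in naive OLs. Among the ligands that were tested, only Il17b was called as higher in OLs than in total RNA or as changed in OLs by this fit.

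Of 20 adaptors and proximal signalling genes of the pathway, 6 were enriched and 7 depleted in naive OLs, with a list median of 0.08 on the log2 scale against -0.27 over all genes. For this list and those that follow, 21.7% of all genes were enriched and 28.6% depleted in naive OLs. Against naive, 10.2%, 6.82% and 8.54% of all genes were higher in OLs at dpi 2, 10 and 42, and 6.85%, 1.26% and 4.08% lower. Rela, the p65 subunit of NF-kB, was enriched by 2.16 ± 0.127 (q = 6.96e-12), whereas the adaptor Traf5 (-2.20 ± 0.7, q = 0.0108) and the TAK1-binding protein gene Tab3 (-1.77 ± 0.205, q = 1.9e-07) were depleted. Traf3ip2, which encodes Act1, was at 1.06 ± 0.835 CPM in naive OLs and 4.66 ± 1.07 CPM in naive total RNA (q = 0.057). After injury 1, 2 and 2 of the 20 were called as higher in OLs at dpi 2, 10 and 42. Traf5 was among them each time (2.53 ± 0.705 at dpi 2, q = 0.0069, from 0.250 to 1.48 CPM), and the kinase gene Ikbke rose at dpi 10 (2.69 ± 0.655, q = 0.00618) and dpi 42 (2.46 ± 0.652, q = 0.00603). The list medians of -0.03, -0.06 and -0.12 were near the 0 of all genes.

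Among 7 inhibitors of IL-17 signalling 3 were enriched and 3 depleted in naive OLs (list median 0.20). Tnfaip3, which encodes the ubiquitin-editing enzyme A20, was depleted by -2.76 ± 0.405 (q = 4.94e-06) and Zc3h12a, which encodes the ribonuclease Regnase-1, enriched by 2.01 ± 0.342 (q = 3.25e-05). Traf3 was depleted by -1.29 ± 0.127 (q = 1.68e-08). In OLs Tnfaip3 rose at dpi 2 (1.71 ± 0.407, q = 0.00202), dpi 10 (2.58 ± 0.405, q = 0.000118) and dpi 42 (2.56 ± 0.405, q = 5.8e-05). At dpi 2 Traf4 (1.10 ± 0.34, q = 0.0142) and Nfkbia (1.07 ± 0.338, q = 0.0153) also rose and Zc3h12a fell (-1.08 ± 0.331, q = 0.0133). The list medians in OLs were -0.53, -0.09 and -0.43.

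Of 9 transcription and mRNA stability factors downstream of the receptors, 3, 2 and 3 rose in OLs at dpi 2, 10 and 42, with list medians of 0.65, 0.57 and 0.12. Cebpb and Cebpd, which encode C/EBP factors induced by many inflammatory signals, rose at all 3 times. Cebpb went from 0.837 CPM in naive OLs to 41.6 CPM at dpi 2 (5.59 ± 0.589, q = 2.22e-07), 15.8 CPM at dpi 10 (q = 2.21e-05) and 34.8 CPM at dpi 42 (q = 1.14e-06). Cebpd went from 7.60 CPM to 199 CPM at dpi 2 (4.71 ± 0.294, q = 2.09e-10), 35.6 CPM at dpi 10 (q = 5.08e-06) and 73.2 CPM at dpi 42 (q = 4.68e-08). Macrophage markers in OL libraries went from 19.8 to 28.1 CPM in naive mice to between 79.6 and 272 CPM after injury, fibroblast and pericyte markers (5 genes) from 48.7 to 92.8 CPM to between 205 and 608 CPM, and endothelial markers (6 genes) from 4.75 to 7.31 CPM to between 10.1 and 23.9 CPM, and their part in these rises was not tested. Both were, like Il17b, lower in mean at dpi 10 than at dpi 2 and 42. Fosb rose at dpi 2 (2.38 ± 0.856, q = 0.0322) and Jund at dpi 42 (1.11 ± 0.151, q = 1.18e-05). In naive OLs 5 of the 9 were enriched and 2 depleted, among them Arid5a (1.49 ± 0.134, q = 4.31e-09), Fosb (-3.90 ± 0.887, q = 0.000729) and Cebpb (-2.63 ± 0.56, q = 0.000387).

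Of 22 genes known as targets of IL-17, 17 could be tested, and 7, 6 and 5 were called as higher in OLs at dpi 2, 10 and 42, with 1 called as lower at dpi 2 (Mmp9) and 1 at dpi 42 (S100a9). Of all genes 10.2%, 6.82% and 8.54% were called as higher in OLs at these times. S100a9 had 0 counts in dpi 42 OLs and at most 6 in a naive OL library. Its bound was at least 1.4-fold lower (q = 0.0304), under the fold limit, so its call rests on the fitted value. The median of the 17 with genes at the floor set to their bounds was 1.01, 1.44 and 0.74 at dpi 2, 10 and 42, and 5.29, 4.14 and 4.22 by the fitted values. Lcn2, the iron-binding protein lipocalin-2, had the highest level of those called, from 0.144 ± 0.154 CPM in naive OLs to 32.3 ± 36.0 at dpi 2 (q = 1.58e-05), 8.73 ± 5.48 at dpi 10 (q = 0.00113) and 54.8 ± 30.2 at dpi 42 (q = 1.17e-05). The chemokine gene Ccl7 rose at least 5.96-fold at dpi 2 (q = 0.00653) and Tnf at least 4.21-fold (q = 0.0166). Ccl2, another chemokine gene, had 0, 0 and 1 counts in naive OL libraries and 42, 34 and 33 counts at dpi 2 (q = 0.000169). The metalloproteinase gene Mmp3 rose at least 7.66-fold at dpi 10 (q = 0.00777) and at least 14.7-fold at dpi 42 (q = 0.00127), and Mmp13 at least 13.4-fold (q = 0.00604) and at least 3.98-fold (q = 0.0208). Tnf was also called at dpi 10, at least 4.93-fold (q = 0.0279). These bounds are for group means. Counts ran from 0 to 28 for Mmp13 at dpi 42 and from 0 to 32 for Tnf at dpi 10. In naive mice 5 of the 17 were lower in OLs than in total RNA, among them Ptgs2 (at least 9.92-fold, q = 0.00431), Lcn2 (q = 0.00633) and Mmp9 (q = 0.00112). In total RNA 12, 11 and 10 of the 17 were higher at dpi 2, 10 and 42, against 10%, 9.2% and 6.66% of all genes. Macrophage markers in OL libraries summed to 19.8 to 28.1 CPM in naive mice, 79.6 to 101 at dpi 2, 240 to 272 at dpi 10 and 146 to 245 at dpi 42, and their part in these changes was not tested.

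Among 13 genes of fibroblast growth factor signalling and its feedback, the setting in which IL-17RD acts as an inhibitor, 6 rose and 1 fell in OLs at dpi 2, with a list median of 0.43. The receptor gene Fgfr4 rose by 4.33 ± 0.669 (1.32 to 26.5 CPM, q = 2.56e-05), and the inhibitor genes Spred3 (2.66 ± 0.196, q = 1.62e-09) and Spry1 (2.03 ± 0.172, q = 1.12e-08) rose as well, Fgfr2 fell (-1.14 ± 0.164, q = 1.1e-05), and Il17rd did not pass the test. At dpi 10 and 42 1 of the 13 rose, Fgfr4 (3.06 ± 0.639, q = 0.00188, and 2.80 ± 0.634, q = 0.00173). Etv5, a transcription factor gene induced by this pathway, fell at dpi 10 (-1.63 ± 0.282, q = 0.000326) and dpi 42 (-1.38 ± 0.279, q = 0.00067), and Etv4 at dpi 10 (-2.24 ± 0.699, q = 0.0298). Naive OL pool 3 was highest for both, with Etv5 at 27.1, 31.7 and 57.7 CPM and Etv4 at 2.02, 2.37 and 13.6 CPM in the naive OL pools. At dpi 10 Etv5 was at 9.55, 14 and 14.2 CPM, below all of these, and Etv4 at 0.311, 2.47 and 1.03 CPM, overlapping the naive pools. Naive OL pool 3 also had an OPC marker sum of 136 CPM, against 32.4 and 29.7 CPM in the other naive pools. Its astrocyte marker sum was 8448 CPM, against 1455 and 1297 CPM. The part of these cells in the Etv4 and Etv5 values was not tested. The list medians at dpi 10 and 42 were -0.26 and -0.37. In naive mice Fgfr4 (3.87 ± 0.83, q = 0.000412) and Fgfr2 (2.73 ± 0.173, q = 1.92e-11) were enriched in OLs and Spred3 depleted (-2.92 ± 0.197, q = 4.98e-11).

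Of 31 tested chains of other interleukin receptors 3 were enriched and 15 depleted in naive OLs, against 21.7% and 28.6% of all genes. The list median was -2.45 by fitted values and -1.15 with genes at the floor set to their bounds. In this comparison 15 of the 31 were at the floor. Il7r, Il2rb and Il27ra, chains known from lymphocytes, were at least 4.17-, 2.28- and 2.22-fold lower in naive OLs (q = 0.00467, 0.0254 and 0.0347). After injury 11, 10 and 10 of the 31 were called as higher in OLs at dpi 2, 10 and 42, against 10.2%, 6.82% and 8.54% of all genes. The list medians were 0.59, 0.77 and 0.46 with bounds and 1.37, 1.68 and 1.19 by fitted values. Il2rg, the common gamma chain, had 1 count over the naive OL libraries (a mean of 0.0128 CPM) and was at 0.732, 1.02 and 0.942 CPM at dpi 2, 10 and 42 (q = 0.000202, 0.000248 and 0.000136). Il3ra rose at dpi 10 (4.53 ± 0.607, q = 1.92e-05) and dpi 42 (4.84 ± 0.609, q = 5.38e-06, to 6.32 CPM) and Il1r1, the IL-1 receptor, at dpi 42 (4.45 ± 0.704, q = 5.71e-05). Il7r was at least 5.22-fold higher at dpi 10 (q = 0.0122) and at least 1.69-fold higher at dpi 2 (q = 0.0326), where 1 library held 17 counts and the others 0. Il27ra was at least 4.15-fold higher in group mean at dpi 2 (q = 0.0246), with 0 to 25 counts per library. The macrophage marker sums in OL libraries were higher in the same comparisons, from at most 28.1 CPM in naive OLs to at least 79.6 CPM at each time after injury, and their part in the receptor values was not tested.

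**Figure D5:**
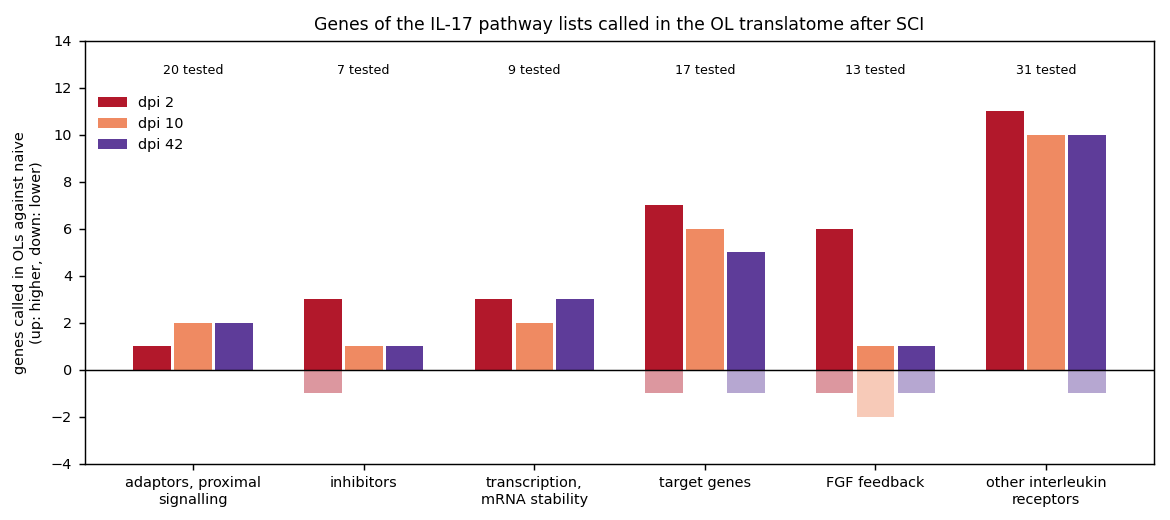
Number of genes of each pathway list called in the OL translatome against naive at dpi 2, 10 and 42, with genes called as higher drawn upward in full colour and genes called as lower drawn downward in pale colour. The number tested stands above each list, and the target genes (7, 6 and 5 of 17 higher) and the other interleukin receptors (11, 10 and 10 of 31 higher) hold most of the calls. Of all genes 10.2%, 6.82% and 8.54% were called as higher at these times.

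The genes whose pattern over the 24 libraries was most like that of each member were found by Pearson's r of log2 CPM among genes with a mean of at least 1 CPM. These are descriptions over libraries that share 2 kinds of RNA, which alone sets much of each r. For Il17b they were Med30 (r = 0.903), Nelfe (r = 0.901) and Gar1 (r = 0.9), for Il17ra Pgd (r = 0.919), Atp6v0e (r = 0.901) and Slc39a1 (r = 0.888), and for Il17rb Ccdc13 (r = 0.956), En2 (r = 0.953) and Pter (r = 0.953). For Il17rc they were Ackr3 (r = 0.947), Ccnd2 (r = 0.943) and Gpc4 (r = 0.934), and for Il17rd Trim67 (r = 0.916), Prom1 (r = 0.909) and Lrrk2 (r = 0.908). For Il17re, at or near 0 counts in most libraries, they were 9930111J21Rik2 (r = 0.866), Tmem45a (r = 0.853) and Slamf6 (r = 0.849).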

How the data were processed

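RNA of OL translatome and of total spinal cord was sequenced from 24 libraries, 12 of each kind. Per the labels and the study's methods, the authors checked reads with FastQC 0.10.1, aligned them with STAR to mm10 (GRCm38.p6) and counted reads per gene with HTSeq 0.10.0, and they deposited raw counts, not normalised, for 21965 genes. The strand setting and the annotation release are not given in the sources used here. Samples were grouped by the description in their labels, also for 2 dpi 42 libraries whose title conflicts with it, and all columns were matched to a sample by name. Gene symbols matched 21939 identifiers. One marker of the mature OL list is not reported here and was left out of its sum.

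Genes with a count sum of at least 10 over 24 libraries (17167) were scaled with TMM and tested with edgeR 4.0.16 (R 4.3.3, limma 3.58.1) by the quasi-likelihood F test in one model of 8 groups, with Benjamini-Hochberg adjustment over all of them. Calls needed an adjusted p under 0.05 and a log2 difference over 0.5 for OL enrichment or over 1 for changes, limits taken from the study's methods. The SE is the fitted log2 difference divided by the root of F, and intervals are at 95%. The script was tested on simulated counts. TMM factors were 0.742 to 0.899 in OL libraries and 1.10 to 1.29 in total RNA. Figures were drawn with matplotlib 3.10.9 in Python 3.11.15. Positions are from GENCODE M21 on GRCm38 and the promoter from RefSeq on GRCm38.p6.

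The members, gene lists and tests were chosen with earlier results of these data known. All 6 members are named in OL enrichment and in the changes against naive. The differential values are given for Il17b, Il17ra and Il17rb, and those between times for Il17b, Il17ra and Il17rc. The other ligands are named for their counts, OL enrichment or OL changes, not for changes in total RNA. From every other list the 3 called genes with the largest change in each OL change and in naive OL enrichment by the fitted values are named, a ranking that depends on the prior count for genes at 0 in a group, and for every member the 3 genes with the highest Pearson r of log2 CPM (prior count 2, mean of at least 1 CPM). Nfkbia, Traf3ip2, S100a9, Ccl2, and Lcn2, Mmp9 and Fgfr2 in the comparisons outside that rule, were named after their values were seen. Where a group had 3 counts or fewer in every library, folds are bounds of the other group's mean against 3 counts per library. They cover counting error only, not the spread between libraries.

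OL and total RNA of one pool come from the same animals by the methods, which is where the pairing comes from. Their deviations from the group means correlated at -0.011 to 0.137 over the 4 times, against -0.105 to 0.05 for different pools, so a fit with the pool as a block was an alternative. Alternatives were DESeq2 size factors, library sizes alone, TMM against a total RNA library, 2 other count filters, the compared groups alone, DESeq2 1.42.0, a block by pool or replicate number, each library left out in turn, and fits without the libraries in doubt. No libraries agreed within sampling noise, with a median chi-square per gene of 2.47 to 19.2 over 24 replicate pairs.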

Additional observations from a re-analysis of the deposited data

How the results depend on the processing

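Apart from fits that left out 1 library, 544 values for the 6 genes kept their direction and side of the threshold, 29 passed it, 6 no longer did and 19 changed sign. Without 1 library the counts were 407, 15, 11 and 35. The cause was not tested in any of these cases. Scaling by library sizes alone moved the median OL enrichment of all genes in naive mice from -0.271 to -0.78, and the split of all genes called higher and lower from 3733 and 4909 to 2005 and 7014. It was 1390 and 7437 at dpi 2, 1536 and 7465 at dpi 10, and 1687 and 6887 at dpi 42, against 3525 and 4670, 3641 and 4680, and 3621 and 4635 with TMM. For OL changes at dpi 2 the split was 2082 and 798 with library sizes and 1559 and 1522 with TMM against a total RNA library, against 1754 and 1176.

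With library sizes alone Il17ra enrichment was 0.375 in naive mice, no longer called, and -0.091 at dpi 42, the total RNA change of Il17rb at dpi 10 was 0.13 and those of Il17rd 0.054 at dpi 10 and 0.007 at dpi 42, the differential value of Il17rb at dpi 2 was -0.018, and 5 members were called in OL enrichment at dpi 2 and 2 in OL change at dpi 42. With DESeq2 size factors, and with the DESeq2 test, the total RNA change of Il17rb at dpi 10 was 0.007. With TMM against a total RNA library it was 0.104 and that of Il17rd 0.029, the differential values of Il17rb were -0.235 at dpi 2 and -0.16 at dpi 42, and 1 member, Il17ra, was called as differential at dpi 2 and 1 at dpi 10. With filterByExpr 2 members were called in OL change at dpi 42. With every gene with a count kept, Il17rd enrichment at dpi 10 was -2.009 with an adjusted p at the threshold.

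With only the compared groups fitted, Il17b enrichment in naive mice was 2.444 and its OL change at dpi 10 was 1.973, both called, Il17rd enrichment at dpi 2 was -2.731 and not called, the total RNA changes at dpi 10 were 0.101 for Il17rb and 0.025 for Il17rd, and 1 member was called in OL change at dpi 10, 2 in total RNA change at dpi 2 and 3 at dpi 10. DESeq2 gave 2.413 for naive Il17b enrichment, called, and called 4 members in naive OL enrichment, 2 in OL change at dpi 42, 3 in total RNA change at dpi 2, 1 as differential at dpi 10 and 1 between dpi 42 and 10. Without both dpi 2 pool 2 libraries Il17b enrichment at dpi 2 was 3.076, not called, Il17ra enrichment 0.146, and 2 members were called in OL change at dpi 2. Without the dpi 42 libraries with conflicting labels the OL change of Il17b was 2.952 and 0 members were called.

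With the tissue pool as a block Il17rd enrichment at dpi 10 was -2.182 and no longer called, and the block changed no other call of a main value. Replicate numbers do not pair libraries across times, with correlations of -0.309 to 0.248 for the same number and -0.174 to 0.221 for other numbers. With that block, the OL changes of Il17rc at dpi 10 and Il17rd at dpi 42 were 0.368 and 0.129, Il17ra in OLs at dpi 42 against dpi 10 was -0.071, the total RNA changes at dpi 10 were 0.118 for Il17rb and 0.018 for Il17rd, and 2 members were called in total RNA change at each of dpi 2, 10 and 42.

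Leaving out 1 library at a time, naive Il17b enrichment ranged from 1.994 to 2.963, Il17b enrichment at dpi 10 from 2.623 to 4.922, the OL change of Il17b at dpi 42 from 2.739 to 3.333 and Il17rd enrichment at dpi 10 from -2.453 to -1.578. The OL change ranged from -0.106 to 0.507 for Il17ra, -0.425 to 0.159 for Il17rb, -0.572 to 1.392 for Il17rc and -0.973 to 0.765 for Il17rd at dpi 10, and for Il17rd from -1.544 to 0.301 at dpi 2 and from -0.993 to 0.744 at dpi 42. The total RNA change ranged from -1.263 to 0.014 for Il17rb at dpi 2, and at dpi 10 from -0.282 to 0.156 for Il17rb and from -0.555 to 1.744 for Il17b. OL enrichment ranged from -0.244 to 0.114 for Il17ra at dpi 2 and from -0.714 to 0.196 for Il17rc at dpi 42, and Il17ra in OLs at dpi 42 against dpi 10 from -0.008 to 0.396. The differential values of Il17rb ranged from -0.466 to 0.814, -0.497 to 0.139 and -0.354 to 0.311 at dpi 2, 10 and 42. The number of members called then ranged from 2 to 5 in naive OL enrichment, 3 to 4, 2 to 4 and 2 to 3 in OL enrichment at dpi 2, 10 and 42, 1 to 2 and 0 to 2 in OL change at dpi 2 and 42, 1 to 2 in total RNA change at dpi 2, 0 to 1 as differential at dpi 2 and at dpi 10, and 0 to 1 between dpi 10 and 2 and between dpi 42 and 10.

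Without the fold limit, 3 adaptor genes were higher and 3 lower in OLs at dpi 2, and of the genes of fibroblast growth factor feedback 1 was higher and 5 lower at dpi 10, and 3 higher and 3 lower at dpi 42. Depth limits Il17re and Il25 in OLs, which were at 0 to 2 counts in naive OL libraries, and Il17b in naive total RNA, at 1 to 6 counts.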
